A study of Mus musculus with 2 samples.

Results

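The genes described here code for the mitochondrial respiratory chain and the ATP synthase, together called oxidative phosphorylation. They were chosen by symbol (mt-Nd, mt-Co, mt-Cytb, mt-Atp, Nduf, Uqcr, Cox4 to Cox8 and Atp5), which gave 102 of 31053 genes. Of these, 13 are coded on the mitochondrial chromosome and 89 in the nucleus. The nuclear members were 36 subunits of complex I, 8 complex I assembly factors (Ndufaf), 8 genes of complex III, 20 of complex IV (Ndufa4 and Ndufa4l2 included) and 17 of ATP synthase, or complex V. Atp5o was listed under 2 gene IDs, of which 1 held almost no counts.

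Cells came from 2 cultures of MM13, a line of mouse embryonic stem cells, differentiated and harvested at day 9 and read with the 10x Genomics 3' droplet assay, which counts RNA molecules by their unique molecular identifiers (UMIs). The first culture received retinoic acid and BMP4 (RA+BMP4) and the second retinoic acid alone (RA), and the series concerns sensory interneurons of the spinal cord. Doses and treatment times are not given in the labels, a single cell line was used, and each condition had 1 library. No test between conditions was therefore possible: ratios are RA+BMP4 over RA, and every interval is a 95% interval that covers counting error only, not the spread between cultures.

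The respiratory chain passes electrons from NADH and succinate to oxygen and pumps protons, and ATP synthase uses the resulting gradient to make ATP. Complexes I, III, IV and V are each built from subunits of both genomes, so their assembly needs products of the mitochondrial and the nuclear genes together. Mitochondrial genes are transcribed as long precursors of either strand, which are cut into messages and given a poly(A) tail. Stem cells and neural progenitors are known to lean on glycolysis, and neurons on oxidative phosphorylation.

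A few stretches of the mitochondrial messages are shown first, since they decide how these genes can be counted. The sequences are those of the GENCODE vM21 transcripts on GRCm38, written along the plus strand. In the 2 shared messages the capitals mark bases that belong to both coding frames, so a molecule read there cannot be given to 1 gene.
mt-Atp8 into mt-Atp6, chrM:7915-7981: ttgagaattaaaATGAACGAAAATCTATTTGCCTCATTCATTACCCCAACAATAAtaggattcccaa
mt-Nd4l into mt-Nd4, chrM:10155-10185: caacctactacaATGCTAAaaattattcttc

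The overlap spanned 43 bases between mt-Atp8 and mt-Atp6 and 7 bases between mt-Nd4l and mt-Nd4. The genes that end with a single T of their stop codon, which the poly(A) tail completes, are 3, and mt-Nd4 of the second shared message is among them. Their last 30 bases are shown beside those of mt-Nd3, the shortest message on the heavy-strand transcript, with the stop letters in capitals.
mt-Co3, chrM:9361-9390: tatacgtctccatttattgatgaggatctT
mt-Nd4, chrM:11515-11544: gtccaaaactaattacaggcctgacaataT
mt-Cytb, chrM:15259-15288: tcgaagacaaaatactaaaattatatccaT
mt-Nd3, chrM:9777-9806: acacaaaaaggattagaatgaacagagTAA

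mt-Nd6 lies on the other strand, at chrM:13552-14070, and its end overlaps that of mt-Nd5 by 14 bases. The strand setting of the counting is not given in the sources used here, so reads in that overlap are uncertain. Many members also have near-identical pseudogene copies, and how the counting treated them is not given.

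The RA+BMP4 library held 13121 barcodes with 115268932 UMIs, and the RA library 9704 barcodes with 122110565 UMIs; 43 barcode sequences occurred in both. Cells with at least 1000 genes, at most 10% mitochondrial UMIs and no doublet call were kept, 8352 in RA+BMP4 at a median of 10465 UMIs and 5900 in RA at a median of 14196 UMIs. Clusters formed without the members were named from marker genes. The kept cells were neuron-like (2946 in RA+BMP4 and 2334 in RA), roof plate-like (2911 and 1073), mesenchyme-like (920 and 434), newborn neuron-like (705 and 664), neural progenitor-like (391 and 991), pluripotent-like (169 and 321), endoderm-like (45 and 33) or unnamed (265 and 50). Different clusters held most of the neuron-like cells (5, 7 and 10 in RA+BMP4, and 2, 8, 11 and 20 in RA) and of the roof plate-like cells (0 in RA+BMP4 and 6 in RA). Clusters 6, 12 and 13 were named roof plate-like from markers that were enriched in them but not among their 10 leading genes, which were Cp, Colec12 and others in cluster 6 and genes of the cell cycle in clusters 12 and 13.

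The mitochondrially coded members took a smaller part of the RNA in RA+BMP4 than in RA, whereas the nuclear members took about the same part. The 13 mitochondrially coded genes made up 4.32% of UMIs in RA+BMP4 and 6.04% in RA, a ratio of 0.715 (0.714 to 0.716). The 89 nuclear genes made up 2.77% of UMIs in RA+BMP4 and 2.73% in RA, a ratio of 1.01 that becomes 0.996 when only UMIs of nuclear genes are counted in the total. There were 1.56 mitochondrially coded UMIs for each nuclear one in RA+BMP4, against 2.21 in RA.

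The lower mitochondrial share was found in all 7 named classes. In neural progenitor-like cells it was 3.33% in RA+BMP4 and 5.28% in RA, a ratio of 0.631. Neuron-like cells had 4.33% in RA+BMP4 and 6.40% in RA (ratio 0.676), and newborn neuron-like cells had 4.55% and 6.61% (ratio 0.688). These 3 classes had the lowest ratios, between 0.631 and 0.688.

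In the 4 other named classes the ratio was 0.701 or more. Endoderm-like cells had a mitochondrial share of 3.65% in RA+BMP4 and 5.21% in RA (ratio 0.701). Roof plate-like cells had 4.34% in RA+BMP4 and 6.02% in RA (ratio 0.720). The mesenchyme-like class had 4.20% in RA+BMP4 and 5.73% in RA (ratio 0.734). Pluripotent-like cells had the ratio closest to 1, 0.790, with 4.85% in RA+BMP4 and 6.13% in RA. In the kept unnamed cells the order turned round, with 4.53% in RA+BMP4 (265 cells) and 4.23% in RA (50 cells). Most unnamed cells had been removed by the 10% limit, 376 of 641 in RA+BMP4 and 199 of 249 in RA. Before that limit their median share was lower in RA+BMP4, at 13.3% against 24.3% in RA.

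The classes are sums over clusters, so the share was also taken cluster by cluster. Of the 20 clusters with at least 20 cells in each library, 20 had a ratio below 1 for the mitochondrially coded genes, between 0.549 in cluster 20 (neuron-like) and 0.823 in cluster 16 (shallow, unnamed). The nuclear genes were below 1 in 13 of the same 20 clusters, over a narrow range of 0.859 to 1.06. Of the 3 remaining clusters, cluster 19, with 37 cells in RA+BMP4 and 7 in RA, had a mitochondrial ratio above 1, 1.23.

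**Figure D1:**
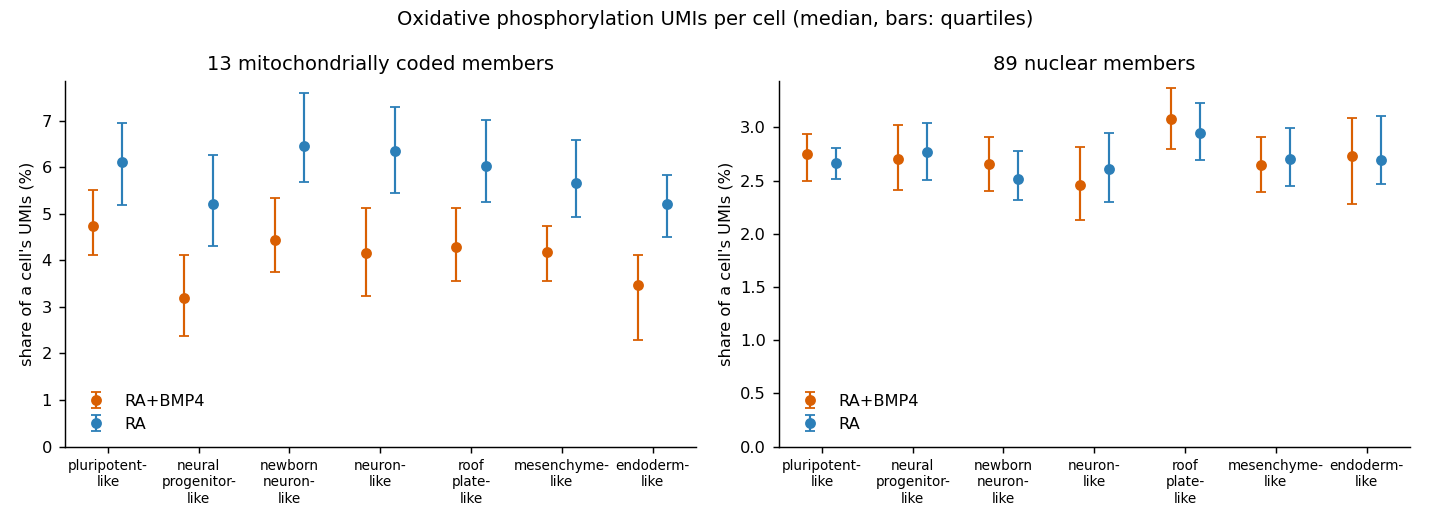
Share of each cell's UMIs from the 13 mitochondrially coded members (left panel) and the 89 nuclear members (right panel) by cell class, in percent. Points are medians over cells and bars run from the lower to the upper quartile, with RA+BMP4 left of RA in each class. In neuron-like cells the mitochondrial medians were 4.16% in RA+BMP4 and 6.34% in RA, and the RA+BMP4 median lay below the RA median in every class of the left panel, while the pairs of the right panel lie close together.

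Several other measures moved with the mitochondrial share, and their part in it was not tested. Before the 10% limit was applied, 8.21% of RA+BMP4 cells and 12.2% of RA cells exceeded it. RA cells were deeper, but among cells of 10000 to 20000 UMIs the median share was still 4.28% in RA+BMP4 (3713 cells) and 6.31% in RA (3274 cells). Over the cells of 2000 to 5000 UMIs the order was the other way, with 5.03% in RA+BMP4 (478 cells) and 3.43% in RA (145 cells), but these bins hold different classes. Neuron-like cells of that depth had 5.12% in RA+BMP4 (265 cells) and 6.39% in RA (51 cells), and neural progenitor-like cells had 5.80% in RA+BMP4 (34 cells) and 0.715% in RA (47 cells). Malat1, a nuclear-retained RNA, took 2.42% of UMIs in RA+BMP4 and 2.08% in RA, and the proteins of the cytosolic ribosome took 15.6% and 16.1%. Dissociation and heat stress genes took 0.136% of UMIs in RA+BMP4 and 0.127% in RA.

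A few kept cells had nearly no mitochondrial UMIs. In RA+BMP4, 78 cells (0.934%) were below 1%, at a median of 3254 UMIs, and in RA 80 cells (1.36%) were, at a median of 3478 UMIs. Of the neural progenitor-like cells, 22 of 391 in RA+BMP4 and 49 of 991 in RA were among them, and of the unnamed cells 27 of 265 and 16 of 50.

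Within the mitochondrial chromosome the size of the difference varied widely from gene to gene. A gene was called higher or lower where its log2 ratio was at least 0.32 in size, the threshold used throughout. By this rule 8 of the 13 genes were lower in RA+BMP4 and 0 were higher, where 5.24% of the 7152 genes with at least 20 CPM (UMIs per 1000000) in either library were lower and 12.5% were higher. Of the 79 nuclear members that met this minimum, 0 were lower and 1 was higher, so that 9 members were called in either direction, where 17.8% of all genes were. The median log2 ratio was -0.49 over the 13 mitochondrially coded genes, 0.01 over the 79 nuclear members and 0.07 over all genes. At 1.5-fold, 4 mitochondrially coded genes were lower, where 1.73% of all genes were lower and 4.87% were called in either direction.

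mt-Nd3, a membrane subunit of complex I, had the lowest ratio. Its level was 320 CPM in RA+BMP4 and 814 CPM in RA, a log2 ratio of -1.35. It was the lowest of the 13 genes in all 7 classes, with log2 ratios between -1.49 in neuron-like cells (309 CPM in RA+BMP4 and 866 CPM in RA) and -1.03 in pluripotent-like cells (454 and 930 CPM).

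The other complex I subunits on this chromosome differed less. mt-Nd2 was at 2531 CPM in RA+BMP4 and 3737 CPM in RA (log2 ratio -0.56), and mt-Nd1 at 2473 and 3368 CPM (log2 ratio -0.45). mt-Nd4 had 2954 CPM in RA+BMP4 and 3412 CPM in RA (log2 ratio -0.21), and mt-Nd4l, on the same message, 199.6 and 209 CPM (log2 ratio -0.07). mt-Nd5 was close to equal, at 538 CPM in RA+BMP4 and 562 CPM in RA (log2 ratio -0.07). mt-Nd6, from the light strand, was the 1 mitochondrially coded gene that was higher in RA+BMP4, at 126 CPM against 113 CPM in RA (log2 ratio 0.16, 0.12 to 0.20), a difference under the threshold.

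mt-Cytb, the cytochrome b of complex III, was at 4715 CPM in RA+BMP4 and 6605 CPM in RA (log2 ratio -0.49). The 3 catalytic core subunits of complex IV did not move as 1 unit. mt-Co3 had 7124 CPM in RA+BMP4 and 10882 CPM in RA (log2 ratio -0.61), and mt-Co2 6768 and 9478 CPM (log2 ratio -0.49). mt-Co1, which carries the haem groups where oxygen is reduced, had 6676 CPM in RA+BMP4 and 7345 CPM in RA (log2 ratio -0.14). As a result mt-Co1 made up 15.5% of mitochondrially coded UMIs in RA+BMP4 and 12.2% in RA.

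Both mitochondrially coded subunits of ATP synthase were among the lower genes. mt-Atp6, part of the proton channel, had 8630 CPM in RA+BMP4 and 13678 CPM in RA (log2 ratio -0.66). mt-Atp8, the small subunit on the same message, had 103 CPM in RA+BMP4 and 182 CPM in RA (log2 ratio -0.82). Summed by complex, the mitochondrial ratio was 0.630 for complex V, 0.714 for complex III, 0.742 for complex IV and 0.748 for complex I.

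**Figure D2:**
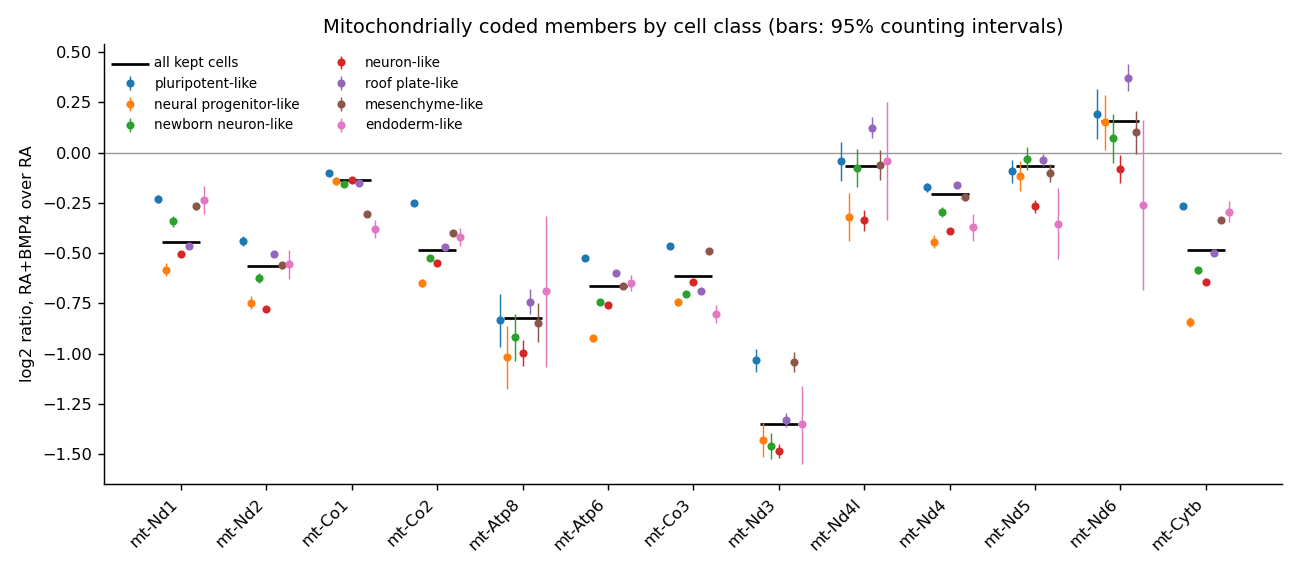
Log2 ratio of RA+BMP4 over RA for each mitochondrially coded member (horizontal axis, in the order of the chromosome) in the 7 named classes (coloured points, with 95% counting intervals) and in all kept cells (black dashes). mt-Nd3 is lowest in each class, at -1.35 in all kept cells, whereas mt-Nd6 lies above 0 in 5 of the 7 classes.

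The ratio went with the length of the message. Over the 10 messages of the heavy-strand transcript, with mt-Atp8 and mt-Atp6 counted as 1 message and mt-Nd4l and mt-Nd4 as another, Spearman's rho between annotated length and log2 ratio was 0.79 and Pearson's r was 0.89. These are descriptions over messages that share the same libraries and 1 precursor, with no test. The shortest message, mt-Nd3 at 348 bases, had the lowest ratio. The 3 longest, mt-Co1 at 1545 bases, mt-Nd4l and mt-Nd4 at 1668 and mt-Nd5 at 1824, lay between -0.20 and -0.07. With the light-strand message of mt-Nd6 (519 bases) included, rho was 0.44 and r was 0.54.

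Among nuclear genes the shortest transcripts had the lowest ratios. The 31 nuclear genes whose longest coding transcript had at most 500 bases had a median log2 ratio of -0.13, and the 5 members among them also -0.13. Transcripts of 500 to 750 bases had a median of 0.03 (138 genes, and 0.02 over the 25 members), and those over 3000 bases one of 0.07 (3850 genes). The members did not keep rising with length. Their median was 0.08 at 750 to 1000 bases (15 members), 0.09 at 1000 to 1500 (14) and 0.01 at 1500 to 2000 (11). It was -0.05 at 2000 to 3000 bases (5 members) and -0.03 over 3000 (4 members). Fragment sizes of the libraries were not analysed here, and their part in the relation to length was not tested.

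**Figure D3:**
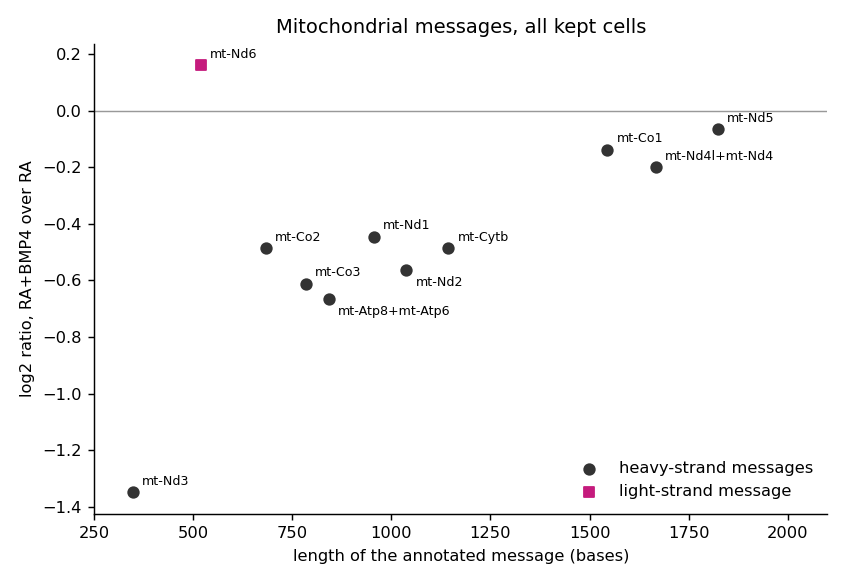
Log2 ratio of RA+BMP4 over RA (vertical axis) against the annotated length of each mitochondrial message in bases (horizontal axis), all kept cells, 1 point for each message. The heavy-strand messages (circles) run from mt-Nd3 at 348 bases and -1.35 to mt-Nd5 at 1824 bases and -0.07, and mt-Nd6 (square, light strand) stands apart at 0.16.

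Of the nuclear members, the summed levels of every complex were alike in both libraries. Complex I subunits summed to 8874 CPM in RA+BMP4 and 8548 CPM in RA (ratio 1.04), and complex III to 2616 and 2537 CPM (ratio 1.03). Complex IV summed to 7696 CPM in RA+BMP4 and 7716 CPM in RA (ratio 0.997), and complex V to 8184 and 8191 CPM (ratio 0.999). The assembly factors of complex I summed to 314 CPM in RA+BMP4 and 301 CPM in RA (ratio 1.04). In complexes I, III, IV and V the nuclear part was thus level while the mitochondrial part was lower.

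Few nuclear members stood far from 1. Cox6b2, described from testis as the alternative form of a complex IV subunit that joins its dimers, was the 1 nuclear member called higher in RA+BMP4, at 69.4 CPM against 50.5 CPM in RA (log2 ratio 0.46, 0.41 to 0.51). Next came Cox4i1, the usual form of the regulatory subunit 4 of complex IV, with 1583 CPM in RA+BMP4 and 1313 CPM in RA (log2 ratio 0.27). Of the complex I subunits, Ndufv3 had 233 CPM in RA+BMP4 and 196 CPM in RA (log2 ratio 0.25), and Ndufc2 had 321 and 274 CPM (log2 ratio 0.23). Atp5h, a stalk subunit of ATP synthase, had 895 CPM in RA+BMP4 and 767 CPM in RA (log2 ratio 0.22), and Ndufaf1, an assembly factor of complex I, 28.6 and 24.6 CPM (log2 ratio 0.21).

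At the low end, ATP synthase and complex IV supplied the 6 lowest ratios. Atp5b, the catalytic beta subunit, was at 767 CPM in RA+BMP4 and 882 CPM in RA (log2 ratio -0.20). The small membrane subunits Atp5k (188 CPM in RA+BMP4 and 213 CPM in RA) and Atp5j2 (480 and 539 CPM) had log2 ratios of -0.18 and -0.17. The complex IV subunits Cox6c (591 CPM in RA+BMP4 and 671 CPM in RA), Cox7b (354 and 396 CPM) and Cox5a (559 and 621 CPM) had log2 ratios of -0.18, -0.16 and -0.15. All 6 differences were under the threshold in the whole libraries. Of the 7 named classes, Atp5k and Cox6c were lower in 7, Atp5b and Atp5j2 in 6 and Cox7b in 5. Cox5a was lower in only 1, the neuron-like cells (log2 ratio -0.21), and its median log2 ratio over the classes was 0.05. Other abundant members were nearly equal: Cox7c had 888 CPM in RA+BMP4 and 948 CPM in RA, Cox8a 851 and 854 CPM, and Ndufa4 714 and 743 CPM.

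Cell classes differed in how their nuclear members compared. In roof plate-like cells the nuclear share was 3.07% in RA+BMP4 and 2.90% in RA (ratio 1.06), and 10 of 79 members were higher and 0 lower, against a background of 19.7% higher and 7.26% lower. Cox4i1 was at 1809 CPM in RA+BMP4 and 1291 CPM in RA there (log2 ratio 0.49), Ndufv3 at 243 and 177 CPM (log2 ratio 0.46) and Atp5h at 1065 and 799.8 CPM (log2 ratio 0.41). The ratio was also above 1 within single roof plate-like clusters, from 1.02 in cluster 6 to 1.06 in cluster 13.

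Neuron-like cells went the other way. Their nuclear share was 2.51% in RA+BMP4 and 2.68% in RA (ratio 0.937), with 1 of 78 members higher and 2 lower, against a background of 12.2% higher and 4.62% lower. The 2 lower members were Atp5j2, at 399 CPM in RA+BMP4 and 520.1 CPM in RA (log2 ratio -0.38), and Atp5k, at 161 and 205 CPM (log2 ratio -0.35). Among its clusters with at least 20 cells in each library the ratio ran from 0.904 in cluster 11 to 0.993 in cluster 2, and it was 0.917 in cluster 18, which had a median of 3685 UMIs.

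In the other classes the nuclear share stayed within 5% of equal. Newborn neuron-like cells had 2.69% in RA+BMP4 and 2.56% in RA (ratio 1.05), with 3 of 78 members higher and 0 lower (background 18.3% and 6.62%). The pluripotent-like class had 2.73% in RA+BMP4 and 2.64% in RA (ratio 1.03), with 1 of 81 higher and 0 lower (background 7.44% and 5.29%). Neural progenitor-like cells had 2.71% and 2.77% (ratio 0.979), with 5 of 79 higher and 2 lower (background 12.2% and 8.01%). Mesenchyme-like cells had 2.67% in RA+BMP4 and 2.72% in RA (ratio 0.982), with 0 of 78 higher and 2 lower (background 9.36% and 6.64%). The few endoderm-like cells had 2.64% in RA+BMP4 and 2.71% in RA (ratio 0.973), with 2 of 80 higher and 5 lower (background 22.7% and 18.3%).

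The mitochondrially coded genes are set against the same backgrounds. Of the 13 genes, 10 were lower in neuron-like cells, 9 in neural progenitor-like and in endoderm-like cells, 8 in newborn neuron-like and in roof plate-like cells, 7 in mesenchyme-like cells and 5 in pluripotent-like cells. The 1 call in the other direction was mt-Nd6 in roof plate-like cells, at 149 CPM in RA+BMP4 and 115 CPM in RA (log2 ratio 0.37), against 116 and 122 CPM in neuron-like cells (log2 ratio -0.08).

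The members at the ends of each class overlapped only in part. Ndufv3, in the flavoprotein arm of complex I, was at 222 CPM in RA+BMP4 and 155 CPM in RA in neural progenitor-like cells (log2 ratio 0.52), and Ndufaf2, an assembly factor of complex I, at 71.5 and 93.0 CPM (log2 ratio -0.38). Ndufaf8, another assembly factor, was at 74.6 CPM in RA+BMP4 and 50.4 CPM in RA in newborn neuron-like cells (log2 ratio 0.57). Mesenchyme-like cells had Uqcr10, a small subunit of complex III, at 345 CPM in RA+BMP4 and 433 CPM in RA (log2 ratio -0.33). Ndufs8, an iron-sulphur subunit of complex I, was lowest in endoderm-like cells, at 62.1 CPM in RA+BMP4 and 100.3 CPM in RA (log2 ratio -0.69, -1.13 to -0.27), on 45 and 33 cells.

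**Figure D4:**
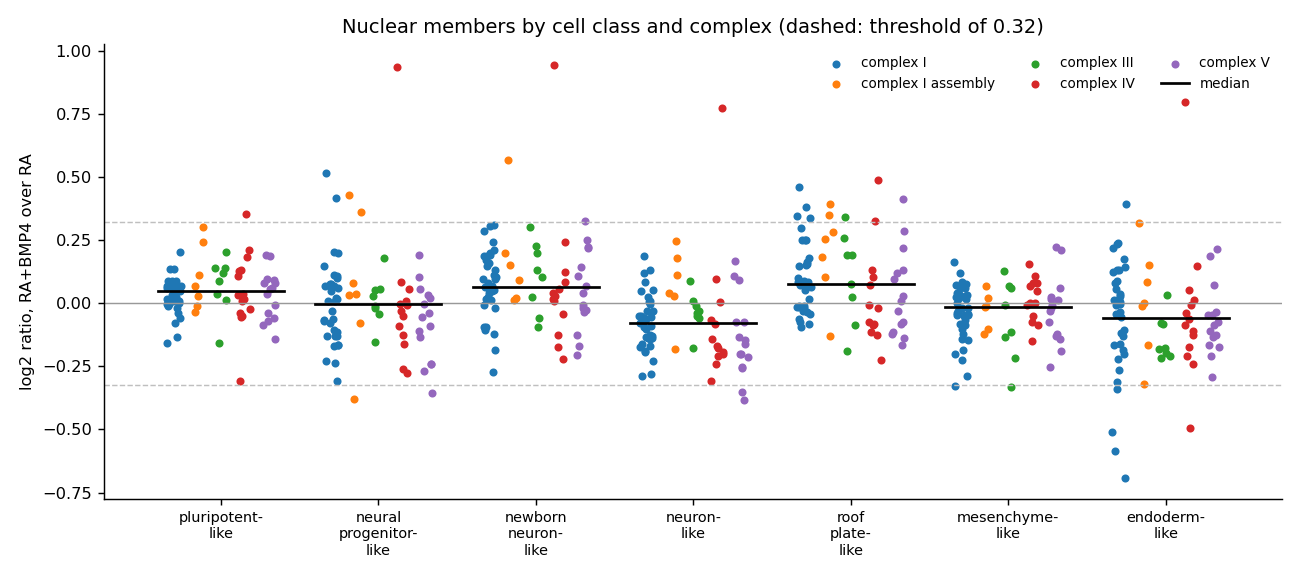
Log2 ratio of RA+BMP4 over RA for each nuclear member with at least 20 CPM in either library (points, coloured by complex), in each of the 7 named classes; black lines are medians and dashed lines mark the threshold of 0.32. Medians run from -0.08 in neuron-like cells to 0.08 in roof plate-like cells, and Cox6b2 is the high complex IV point in neural progenitor-like, newborn neuron-like, neuron-like and endoderm-like cells.

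Alternative isoforms of complex IV subunits marked particular classes. Ndufa4l2, known as a hypoxia-induced relative of Ndufa4, was at 59.5 CPM in RA+BMP4 and 73.5 CPM in RA in pluripotent-like cells, and at most 3.22 CPM in any other named class of either library; its 0 UMIs in RA+BMP4 endoderm-like cells lie below the CPM that 3 counts would give, 2.62. Over whole libraries it was at 5.58 CPM in RA+BMP4 and 13.6 CPM in RA, and the pluripotent-like cells numbered 169 and 321. Ndufa4 itself varied little, between 611 and 788 CPM over the classes of RA+BMP4 and between 631 and 836 CPM over those of RA.

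Cox7a1, known as the heart and muscle form of its subunit, was also highest in pluripotent-like cells, at 44.4 CPM in RA+BMP4 and 39.1 CPM in RA. Endoderm-like cells followed with 20.1 CPM in RA+BMP4 and 28.3 CPM in RA, and the 5 other classes stayed at or under 5.15 CPM. Cox7a2, the widely expressed form, was at 432 CPM or more in every class. Cox8c and Cox7b2, described mainly from germ cells, were just detectable in pluripotent-like cells, at 3.98 and 5.76 CPM in RA+BMP4 and 2.67 and 1.89 CPM in RA. Cox6a2, the muscle form of subunit 6a, was at most 1.18 CPM in any class, and Cox8b had 1 UMI in each library. Cox4i2, known as the oxygen-sensitive form of subunit 4, was highest in pluripotent-like cells too, at 3.54 CPM in RA+BMP4 and 1.61 CPM in RA.

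Cox6b2 had another pattern. It was at 71.7 CPM in RA+BMP4 and 37.4 CPM in RA in neural progenitor-like cells (log2 ratio 0.94, 0.74 to 1.14). In newborn neuron-like cells it was at 35.3 CPM and 18.3 CPM (log2 ratio 0.95), and in neuron-like cells at 35.7 CPM and 20.9 CPM (log2 ratio 0.77). Roof plate-like cells had 97.9 CPM in RA+BMP4 and 78.0 CPM in RA (log2 ratio 0.33), and mesenchyme-like cells 78.8 and 83.6 CPM (log2 ratio -0.09). Endoderm-like cells had 82.2 CPM in RA+BMP4 and 47.2 CPM in RA (log2 ratio 0.80), and pluripotent-like cells 88.1 and 69.0 CPM (log2 ratio 0.35), so Cox6b2 was called higher in 6 of the 7 classes. Its usual partner form Cox6b1 differed little in the whole libraries, with 492 CPM in RA+BMP4 and 498 CPM in RA.

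The c-ring of ATP synthase, the rotor turned by protons, is coded by 3 nuclear genes that give the same mature protein, and these were spread differently over the classes. Atp5g1 was highest in pluripotent-like cells, at 867 CPM in RA+BMP4 and 759 CPM in RA, and lower in neuron-like cells, at 475 and 500.6 CPM. Atp5g2 was highest in roof plate-like cells, at 964 CPM in RA+BMP4 and 827 CPM in RA, and lowest in neuron-like cells, at 503 and 447 CPM. Atp5g3 was lowest in pluripotent-like cells, at 272 CPM in RA+BMP4 and 261 CPM in RA. Its highest class was roof plate-like in RA+BMP4 (411 CPM, and 375 CPM in RA) but neuron-like in RA (431 CPM, and 386 CPM in RA+BMP4). Between libraries Atp5g2 was higher in RA+BMP4 in each of the 7 classes, though by less than the threshold.

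**Figure D5:**
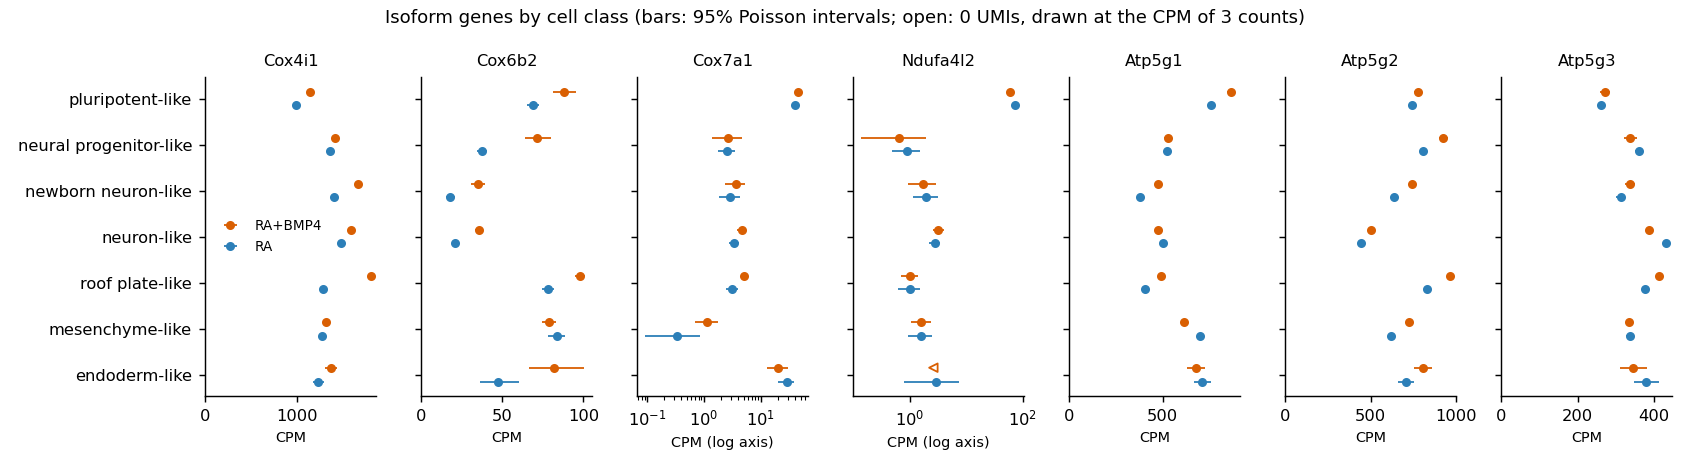
Level in CPM (horizontal axes, log scale for Cox7a1 and Ndufa4l2 and linear from 0 for the others) of 7 isoform genes in the 7 named classes, with RA+BMP4 drawn above RA in each class and 95% Poisson intervals as bars. An open triangle marks 0 UMIs, drawn at the CPM of 3 counts. Ndufa4l2 and Cox7a1 are highest in pluripotent-like cells, at 59.5 and 44.4 CPM in RA+BMP4, and Atp5g2 in roof plate-like cells at 964 CPM.

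The promoters of the c-ring genes are given because these genes supply 1 protein from 3 separately controlled loci. Each covers 250 bases before to 50 bases after the start of the gene, from RefSeq on GRCm38.p6, read along the minus strand on which all 3 genes lie. Capitals mark a match to the core of the site of NRF1, a known regulator of respiratory genes, and lower case alone means that none of the 3 motifs searched was in the window.
Atp5g1, chr11:96075582-96075881: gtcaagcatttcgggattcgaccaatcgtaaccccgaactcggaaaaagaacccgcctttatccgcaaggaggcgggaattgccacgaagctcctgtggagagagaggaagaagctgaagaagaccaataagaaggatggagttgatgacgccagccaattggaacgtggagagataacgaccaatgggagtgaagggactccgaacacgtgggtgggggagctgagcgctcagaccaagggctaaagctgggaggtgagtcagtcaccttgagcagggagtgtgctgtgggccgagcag
Atp5g2, chr15:102670998-102671297: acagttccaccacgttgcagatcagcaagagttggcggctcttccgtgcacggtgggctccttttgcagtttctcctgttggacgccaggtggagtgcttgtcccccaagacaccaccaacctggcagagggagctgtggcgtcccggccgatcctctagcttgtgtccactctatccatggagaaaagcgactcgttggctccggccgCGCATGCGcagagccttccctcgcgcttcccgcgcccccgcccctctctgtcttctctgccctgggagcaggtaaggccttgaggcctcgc
Atp5g3, chr2:73911277-73911576: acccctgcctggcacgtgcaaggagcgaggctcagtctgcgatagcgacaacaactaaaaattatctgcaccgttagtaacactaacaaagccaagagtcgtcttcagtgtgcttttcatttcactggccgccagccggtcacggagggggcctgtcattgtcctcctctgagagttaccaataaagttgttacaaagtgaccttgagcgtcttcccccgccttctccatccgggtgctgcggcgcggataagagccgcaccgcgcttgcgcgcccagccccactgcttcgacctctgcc

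Of the 89 nuclear members, 72 had a promoter in this table. The NRF1 core CGCATGCG, which reads the same on both strands, was in 10 of the 72 (13.9%) and in 1.91% of all 27025 promoters. The core of ETS factors such as GABP, CCGGAAG on either strand, was in 15 (20.8%) and in 9.12% of all promoters. The YY1 core AAGATGGCG on either strand was in 7 (9.72%) and in 1.49% of all promoters. The ETS core ends and the YY1 core starts with AAG, so 1 stretch can hold both, and a match is a description of the letters and not evidence of binding.

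Inside each library the classes differed in order and extent. The mitochondrial share was highest in pluripotent-like cells in RA+BMP4 (4.85%) and in newborn neuron-like cells in RA (6.61%), and lowest in neural progenitor-like cells in RA+BMP4 (3.33%) and endoderm-like cells in RA (5.21%). Neuron-like cells had a higher mitochondrial share than neural progenitor-like cells in both libraries. The 10% limit had cut these classes unequally, removing 3.22% of neuron-like and 16.8% of neural progenitor-like cells in RA+BMP4, and 5.96% and 19.5% in RA. Before it, their medians were 4.21% and 3.53% in RA+BMP4, and 6.45% and 5.65% in RA. The count of single mitochondrially coded genes called higher in neuron-like cells was no larger than the background, at 5 of 13 in RA+BMP4 (background 42.3%) and 4 of 13 in RA (background 41.5%). However, 0 of 13 were lower in either library (background 30.5% in RA+BMP4 and 30.8% in RA). The median log2 ratio of the 13 was 0.28 in each library, against 0.15 in RA+BMP4 and 0.13 in RA over all genes. Of the nuclear members, 17 of 79 were lower and 6 higher in RA+BMP4 (background 30.5% and 42.3%) and 14 lower and 7 higher in RA (background 30.8% and 41.5%).

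Dividing and other roof plate-like cells also differed. Clusters 12 and 13, led by histone and mitosis genes, had a mitochondrial share of 3.91% in RA+BMP4 and 5.44% in RA. Clusters 0 and 6 had 4.57% in RA+BMP4 and 6.46% in RA. The nuclear share was 2.96% in clusters 12 and 13 and 3.13% in clusters 0 and 6 of RA+BMP4, and 2.81% and 2.97% in RA.

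Among 81 nuclear members, 48 had the same highest class in both libraries, most often roof plate-like (18) or pluripotent-like (10), and 49 had the same lowest class, most often pluripotent-like (18). The same counts were not made over all genes, so these cannot be called many or few. The members that spread most over classes, beside the isoforms above, came from complexes I, III and IV. Ndufa12, a complex I subunit, was at 357 CPM in roof plate-like and 147 CPM in neuron-like cells of RA+BMP4, and at 336 and 161 CPM in RA. Ndufa13, a complex I subunit also known as GRIM-19, was at 749 CPM in roof plate-like and 358 CPM in pluripotent-like cells of RA+BMP4, and at 698 and 355 CPM in RA. Cox5a, a complex IV subunit, had the reverse order, at 898 CPM in pluripotent-like and 437 CPM in roof plate-like cells of RA+BMP4. Ndufs6, an accessory complex I subunit, was at 302 CPM in pluripotent-like and 153 CPM in neuron-like cells of RA+BMP4, and Ndufaf6, an assembly factor, at 41.0 and 14.2 CPM.

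Glycolysis genes were higher in RA+BMP4 in several classes. Of the genes tested, 16 of 18 were higher in neural progenitor-like cells and 1 was lower, with a median log2 ratio of 1.05, where 12.2% of all genes were higher. In neuron-like cells 13 of 17 were higher (median 0.80, background 12.2%), in newborn neuron-like cells 14 of 15 (median 0.79, background 18.3%) and in roof plate-like cells 11 of 17 (median 0.58, background 19.7%), with none lower. Endoderm-like cells had 5 of 16 higher and 0 lower (median 0.27, background 22.7%). In mesenchyme-like cells 2 of 16 were higher and 2 lower (median -0.02, background 9.36% and 6.64%), and in pluripotent-like cells 0 of 17 were higher and 1 was lower (median -0.02, background 7.44% and 5.29%). The mitochondrial ratios of the same classes, in the same order, were 0.631, 0.676, 0.688, 0.720, 0.701, 0.734 and 0.790, so the 3 classes with the lowest mitochondrial ratios had the 3 highest glycolysis medians. Neither the relation nor the difference between classes was tested. Of the dissociation and heat stress genes, 4 of 7 were also higher in neural progenitor-like and in neuron-like cells, where 12.2% of all genes were higher in each. In mesenchyme-like cells 8 of 10 were lower, where 6.64% of all genes were lower, although the glycolysis genes there had 2 higher and 2 lower. Their counts in the other classes are not given here, and their part in the glycolysis differences was not tested.

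Single glycolysis genes past the threshold are given for only some of the classes, so they show no order over all of them. Slc16a3, a lactate exporter, was at 175 CPM in RA+BMP4 and 26.0 CPM in RA in neural progenitor-like cells (log2 ratio 2.75), and at 146 and 133 CPM in pluripotent-like cells (log2 ratio 0.14). Pdk1, the kinase that inhibits pyruvate dehydrogenase, was at 61.5 CPM in RA+BMP4 and 14.8 CPM in RA in neural progenitor-like cells (log2 ratio 2.05), and at 42.5 and 45.7 CPM in pluripotent-like cells. Tpi1, triose phosphate isomerase, was at 908 CPM in RA+BMP4 and 366 CPM in RA in neural progenitor-like cells (log2 ratio 1.31), and at 271 and 279 CPM in mesenchyme-like cells. Slc2a3, a glucose transporter, was lower in the whole RA+BMP4 library, at 75.4 CPM against 115 CPM in RA, but higher in neural progenitor-like cells, at 60.8 and 15.0 CPM. Pdha1, the subunit of pyruvate dehydrogenase that Pdk1 acts on, was at 127 CPM in RA+BMP4 and 206 CPM in RA over all kept cells (log2 ratio -0.71). It was the 1 gene of 15 in the tricarboxylic acid cycle list past the threshold, where 17.8% of all genes were called in either direction and 5.24% were lower. Its levels within the classes are not given here.

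The remaining lists are given for the whole libraries, where 12.5% of all genes were higher and 5.24% lower. In complex II, 0 of 4 genes passed the threshold, and cytochrome c (Cycs) was at 171 CPM in RA+BMP4 and 205 CPM in RA (log2 ratio -0.26). Assembly genes of complexes III and IV had 4 of 18 higher and 0 lower, all 4 of them factors of complex IV: Coa3 (244 CPM in RA+BMP4 and 190.0 CPM in RA), Coa6, Cox11 and Coa4, with log2 ratios of 0.36, 0.36, 0.35 and 0.33. The mitochondrial ribosome had 4 of 76 higher and 0 lower, led by Mrpl23 at 165 CPM in RA+BMP4 and 121 CPM in RA (log2 ratio 0.45). Fatty acid oxidation had 3 of 11 higher and 0 lower, with Acadvl at 43.2 CPM in RA+BMP4 and 28.5 CPM in RA (log2 ratio 0.60).

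Genes that make, keep or degrade mitochondrial RNA are set against the same whole-library shares, 12.5% higher and 5.24% lower. Of 6 transcription and genome copying genes tested, 1 was higher, Mterf3, known to repress mitochondrial transcription, at 32.7 CPM in RA+BMP4 and 25.9 CPM in RA (log2 ratio 0.34). Of 10 RNA stability and processing genes, 1 was higher, Pnpt1, a mitochondrial RNA-degrading enzyme, at 50.5 CPM in RA+BMP4 and 37.8 CPM in RA (log2 ratio 0.42). None of the 4 biogenesis regulators tested passed the threshold.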

How the data were processed

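Day 9 cells were captured with the 10x Genomics 3' kit after dead cells had been removed, according to the labels. The authors deposited 1 matrix of raw UMI counts per library, made with Cell Ranger 3.0.2, CASAVA and GRCm38 according to the submitters' processing notes. The annotation release is not given in the sources used here. Members and gene lists were chosen with earlier results of these data known, and the rule that names clusters was set once they had been seen.

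Cells needed 1000 genes, at most 10% mitochondrial UMIs and no Scrublet doublet call (expected rate 8%; 308 calls in RA+BMP4 and 155 in RA among barcodes with 1000 genes). The mitochondrial limit uses the same 13 genes as the outcome, so it was varied. All barcodes with 1000 genes and no doublet call were clustered whatever their mitochondrial share, without members, mitochondrial, ribosomal, marker and list genes (scanpy 1.11.5, 3000 variable genes, 30 components, 20 neighbours, leidenalg 0.10.2 at a resolution of 1), giving 23 clusters. Each was named for the class that had the most markers in its 10 leading genes, provided that 3 or more markers of that class were enriched. Ties went to the class with more enriched markers, and shallow or mixed clusters stayed unnamed.

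Counts were summed over cells and scaled to CPM. Genes with at least 20 CPM in either library were compared, and a gene was called at a log2 ratio of 0.32 in size. Shares have exact Clopper-Pearson intervals, ratios exact conditional binomial ones, and any count under 3 was set to 3 in ratios. On simulated Poisson counts, 100 of 100 genes changed by 1.5-fold and 100 of 100 changed by 2-fold were called, and 0 of 6695 unchanged ones. These counts hold counting error only, which is small at this depth. They therefore give no rate of false calls between cultures. Named genes were the 13 mitochondrially coded ones, the isoform pairs, the 6 members at either end of the whole-library ratios, the 3 at each end of every class, the 10 with the widest spread over classes, the 6 most abundant, and up to 4 genes of each list past the threshold, with Cycs and Ndufa4 as partners. Alternative scalings used edgeR 4.0.16 and DESeq2 1.42.0 size factors only.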

Additional observations from a re-analysis of the deposited data

Results flagged for a closer look

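The nuclear share moved in opposite directions in different classes, and the difference between the classes was not tested. The ratio of RA+BMP4 over RA was 1.06 in roof plate-like, 1.05 in newborn neuron-like and 1.03 in pluripotent-like cells, against 0.982 in mesenchyme-like, 0.979 in neural progenitor-like, 0.973 in endoderm-like and 0.937 in neuron-like cells. In neural progenitor-like and endoderm-like cells the direction depended on the processing: the ratio was 1.10 in neural progenitor-like cells with each library clustered alone, and in endoderm-like cells 1.02 as a ratio of medians over cells and 1.01 in cells of 2000 genes or more that had 5% mitochondrial UMIs or less.

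Of the mitochondrially coded genes, mt-Nd4l and mt-Nd6 also had opposite directions, again untested. The log2 ratio of mt-Nd4l was 0.12 in roof plate-like and -0.34 in neuron-like cells. However, mt-Nd4, on the same message and with far more counts, was lower in both, at -0.16 and -0.39. The log2 ratio of mt-Nd6 was 0.37 in roof plate-like and -0.083 in neuron-like cells.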

How the results depend on the processing

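No paired analysis was possible because each condition had 1 library. The mitochondrial ratio of 0.715 stayed below 1 under each of these alternatives, though not in the bin of 2000 to 5000 UMIs given in the report: 0.717 with at most 20% mitochondrial UMIs, 0.707 with no upper limit, 0.721 over every barcode, 0.722 with cells weighted equally, 0.711 without pluripotent-like cells, 0.714 with doublets kept and, chosen after seeing the data, 0.712 without clusters 16, 18 and 19, which had few UMIs per cell, and 0.678 as the median of cells of 10000 to 20000 UMIs. With at least 2000 genes and at most 5% it was 0.889. This setting changes 2 choices together, and the cause was not tested. Its 5% limit selects cells on the outcome itself. The limit lies between the median mitochondrial shares of the kept cells, 4.22% in RA+BMP4 and 6.06% in RA. The nuclear ratio of 1.01 was 1.02 with no limit and over every barcode, 1.01 without pluripotent-like cells or with cells weighted equally, 0.996 as a share of nuclear UMIs and 1.03 at matched depth, so its side of 1 depends on the denominator. Of members past the threshold, 9 at first with 8 lower, the count was 15 with no minimum, 4 at 1.5-fold and 1 at 2-fold, and with at least 2000 genes and at most 5% 3 were higher and 3 lower. Under that joint setting mt-Co1, mt-Nd4, mt-Nd4l and mt-Nd5 had ratios of 1.15, 1.11, 1.08 and 1.13. The nuclear ratio of neural progenitor-like cells ran from 0.977 to 1.10 and that of endoderm-like cells from 0.958 to 1.02. TMM and median-of-ratios factors gave 9. The mitochondrial share was lower in 7 of 7 classes under the class alternatives, except that clustering each library alone gave 6 of 6. The number of cells limits the endoderm-like class most, with 45 in RA+BMP4 and 33 in RA.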
